A study of Caenorhabditis elegans with 7 samples.

Results

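Chromosome IV carried 440 of the 2436 regions at which PHA-4::GFP was detected in young adult worms, or 18.1% of them (95% interval 16.6 to 19.6). These members are all peaks placed on IV in the list that the authors called on their combined data. The replicate lists placed 77 of 418 peaks (replicate 1) and 350 of 1834 peaks (replicate 2) on the same chromosome. They show which members were also called in each replicate. The study had a single condition and no untagged control among the samples used here: chromatin immunoprecipitation and sequencing (ChIP-seq) with a goat antibody against GFP, in Caenorhabditis elegans hermaphrodites of strain OP37 kept at 20 °C and fixed with 2% formaldehyde. OP37 has the unc-119(ed3) mutation on chromosome III and the bombarded transgene wgIs37, which supplies unc-119(+) and a pha-4 gene tagged with TY1, EGFP and 3xFLAG. All samples share this genotype, and the labels name 2 ChIP samples of replicate 1, 2 ChIP samples of replicate 2 and 3 input samples of replicate 2. Whole worms were used, so the peaks do not show in which cells PHA-4 was bound, and the untagged protein was not measured.

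PHA-4 is the worm's FoxA protein, a forkhead transcription factor. It is required for the pharynx, the feeding organ, and it is also expressed in the intestine and the gonad. FoxA factors are known for reaching their sites in closed chromatin. C. elegans autosomes have gene-rich centres and more repetitive arms that recombine often, and chromosome IV also holds most of the worm's 21U-RNA (piRNA) genes.

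Positions are given in the WormBase WS190 build, as the authors' files give them. Strength means the −log10 of the authors' q-value. A smaller q means stronger evidence of enrichment over input after correction for many tests. All q-values in the lists lay under 0.01. No read counts came with the lists, so depth is unknown. A longer list may come from deeper sequencing, and a wide region can reach a small q-value at modest occupancy. Peaks of a list are not replicates of a condition, so no test was run between chromosomes and nothing below is called particular to chromosome IV. Intervals are 95% exact intervals over peaks and cover counting error only. No gene is named beside a region, since an annotation of WS190 was not used here.

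The strongest PHA-4 region of chromosome IV was IV 4467945 to 4474494. It spanned 6550 bp with a combined q of 7.33e-112 and ranked 5 in the whole list. Replicate 2 called nearly the same interval as 1 peak, 4467966 to 4474495 (q = 2.55e-81, rank 6 of 1834). Replicate 1 divided it into 3 peaks: 4467988 to 4470885 (q = 1.22e-07), 4471296 to 4471981 (q = 0.000138) and 4472392 to 4474380 (q = 5.35e-15). Together these covered 85.1% of it. The region did not stand alone. Only 945 bp to its right lay IV 4475440 to 4480651 (5212 bp, combined q = 5.81e-34), the seventh strongest of the chromosome. Replicate 2 held this neighbour over its whole width (q = 3.06e-27), while replicate 1 held 1121 bp of it at q = 0.000692. The pair extended over 12707 bp, of which combined peaks covered 92.6%.

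A second pair of strong regions lay 212 bp apart, which is the smallest gap on the chromosome. These were IV 12197273 to 12201655 (4383 bp, combined q = 5.6e-39) and IV 12201868 to 12205974 (4107 bp, combined q = 1.6e-43). Replicate 2 did not divide them there: a single peak of 6471 bp, 12198740 to 12205210 (q = 1.5e-48), ran across the gap. Replicate 1 held 4 narrow peaks in the pair, from 363 to 1096 bp wide, with q-values from 0.000302 to 0.00395. The border between the members at ranks 4 and 6 was therefore drawn in the combined list and absent from replicate 2. Replicate 1 had a break there, between a peak ending at 12201301 and one starting at 12201943, and further breaks within the rank 4 member. Replicate 2 had a break inside the rank 6 member, between a peak ending at 12198467 and the one starting at 12198740.

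The remaining leaders lay between 2601076 and 16171635, short of both ends of the covered span. IV 2601076 to 2605265 ranked 2 (4190 bp, q = 2.57e-52). Replicate 2 gave it q = 6.82e-37, and the best of 2 replicate 1 peaks had q = 1.48e-07. IV 16167400 to 16171635 ranked 3 (4236 bp, q = 1.85e-46), and here the order of the replicates differed from that at the other leaders. It was the strongest chromosome IV peak of replicate 1 (q = 7.16e-21, rank 4 of 418), whereas the best of its 2 replicate 2 peaks had q = 9.1e-15 and rank 94 of 1834.

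IV 9042100 to 9043538 ranked 5 on the chromosome, with q = 1.54e-39, and was the narrowest of the 10 leaders, at 1439 bp. It was 1 peak of 1190 bp in replicate 1 (q = 2.63e-10) and 1 peak of 1453 bp in replicate 2 (q = 1.38e-28). IV 9438782 to 9442835 (4054 bp, q = 1.31e-30) was called with nearly the same borders in replicate 2 (q = 1.63e-25), but replicate 1 held only 25.8% of it, at q = 0.00468. IV 8431104 to 8433385 ranked 10 (2282 bp, q = 3.47e-24), with q = 4.86e-08 in replicate 1 and q = 4e-17 in replicate 2. All 10 leaders were found in both replicate lists. On the other 5 chromosomes 7 to 10 of the 10 leaders were found in replicate 1 and all 10 in replicate 2.

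**Figure D1:**
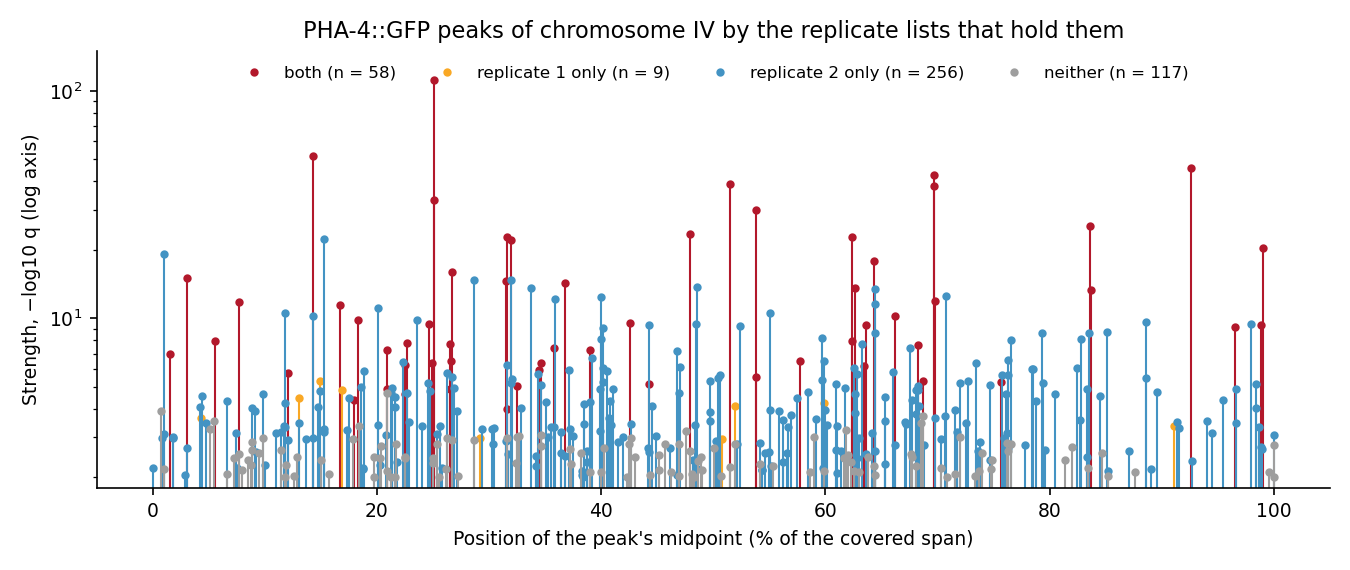
Strength (−log10 q, log axis) of each of the 440 combined peaks of chromosome IV against the position of its midpoint in percent of the covered span, coloured by the replicate lists that hold it. The strongest peak stands at 25.1% of the span with a strength of 111.1, and grey peaks held by neither replicate list all lie below 5.

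The widest region was IV 14609029 to 14618055, at 9027 bp the ninth in strength (combined q = 4.24e-26). Of the 5 widest members, 4 were held by both replicate lists. The widest region was weak for its size in each replicate alone: replicate 2 held 3 peaks in it, the best at q = 1.36e-07, and replicate 1 held 2, the better at q = 0.00435. At 360 bp to its right began IV 14618416 to 14624478 (6063 bp, combined q = 4.19e-14), the third widest. There replicate 1 gave the smaller q (2.95e-08, 3458 bp) and replicate 2 the larger (5.87e-06, 2623 bp). The 15450 bp from the first base of one to the last of the other formed the longest stretch of chromosome IV peaks with gaps under 1 kb. Next in width were IV 5601238 to 5606706 (5469 bp, q = 1.97e-23) and IV 2769590 to 2775032 (5443 bp, q = 4.3e-23). The last of these was not found in replicate 1.

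Most members were far smaller. The median width on IV was 467 bp (interval 428 to 505), against 477 to 550 bp on the other 5 chromosomes. The quartiles on IV were 330.5 and 870 bp. Peaks over 2000 bp made up 7.73% on IV (34 peaks) and 8.12% to 13.2% elsewhere. The median strength was 3.38 on IV (interval 3.17 to 3.58) and 3.29 to 3.54 elsewhere, so it lay within the range of the others. At a strength of at least 10 (q of 1e-10 or less) there were 40 members, 9.09% on IV against 9.14% to 14.1% on the other chromosomes. At these limits chromosome IV had the smallest median width and the smallest shares of wide and of strong peaks of the 6. At other limits it did not: X had a smaller share at a strength of at least 20 (3.41% on IV against 3.06% on X), and over 5000 bp there were 7 peaks on IV, against 4 on III and 2 on X. The nearest chromosome at the first limits, I, lay within the interval of IV for the median width, and no difference was tested. The replicate lists kept this order only in part. In replicate 1 the median width on IV, 602 bp, was above those on II (573.5 bp) and V (597 bp). In replicate 2 the share over 2000 bp on IV, 8.29%, was above those on III (6.77%) and X (7.48%). IV was lowest for median width in replicate 2, for wide peaks in replicate 1 and for strong peaks in both.

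Strength and width went together across the members, with a Spearman rho of 0.48 on IV and 0.45 to 0.49 on the other chromosomes. The q-value depends on reads summed over a region, so the measures share their source. The 44 strongest members had a median width of 2211.5 bp and the 110 weakest one of 377 bp. The 44 widest members covered 150.8 kb, which is 41.3% of the 365.2 kb under all chromosome IV peaks. At the other extreme, 7 members were narrower than 50 bp, from 3 to 40 bp. None of these 7 was in either replicate list, and the strongest ranked 290 on the chromosome.

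**Figure D2:**
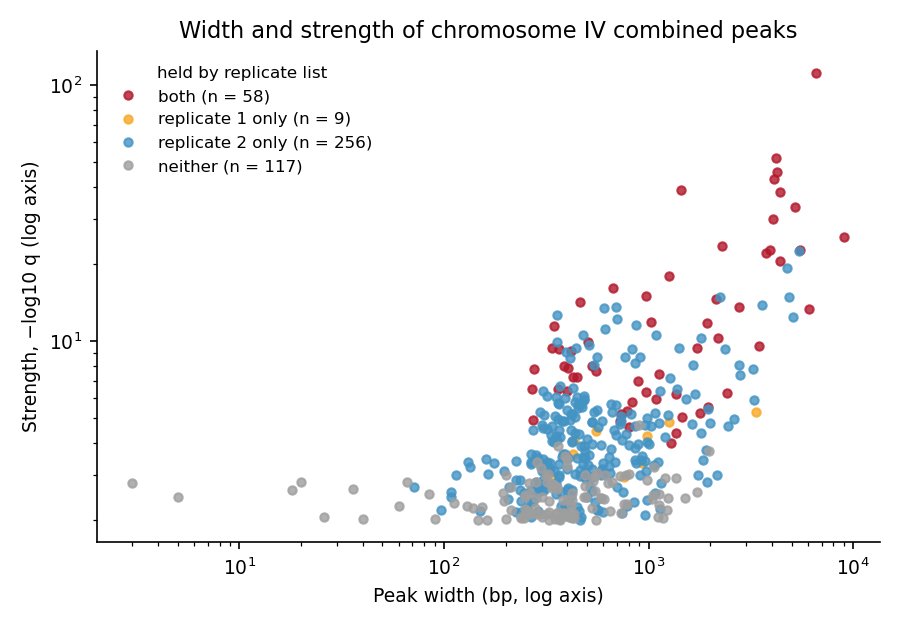
Width (bp, log axis) against strength (−log10 q, log axis) of the 440 chromosome IV combined peaks, coloured by the replicate lists that hold them. Peaks held by both lists have a median width of 1189.5 bp and a median strength of 9.36, peaks held by neither 362 bp and 2.43, and the 7 peaks under 50 bp are all grey.

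Peaks were not evenly spaced along chromosome IV. Over the 17.3 Mb from the first peak base of the 3 lists to the last there were 25.4 members per Mb, against 16.7 to 29.9 per Mb on the other chromosomes, and they covered 2.11% of that span. The median gap between neighbours was 19752 bp (interval 16164 to 24452), against 17616 to 32251 bp elsewhere. The mean gap was 38625 bp, 1.96 times the median, against 1.83 (V) to 2.05 (I) times elsewhere. Of 439 gaps on IV, 63 were under 1 kb (14.4%, against 11.4% to 14.1% elsewhere). Another 47 were over 100 kb (10.7%, against 6.17% to 20.5%), and these made up 7.36 Mb or 42.5% of the span. No gap was shorter than 212 bp on IV or 203 bp on the other chromosomes. The median gap is a property of the list used: it was 119252 bp in the shorter replicate 1 list and 27432 bp in replicate 2, and 35114.5 bp when only combined peaks with q of 0.001 or less were kept.

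**Figure D3:**
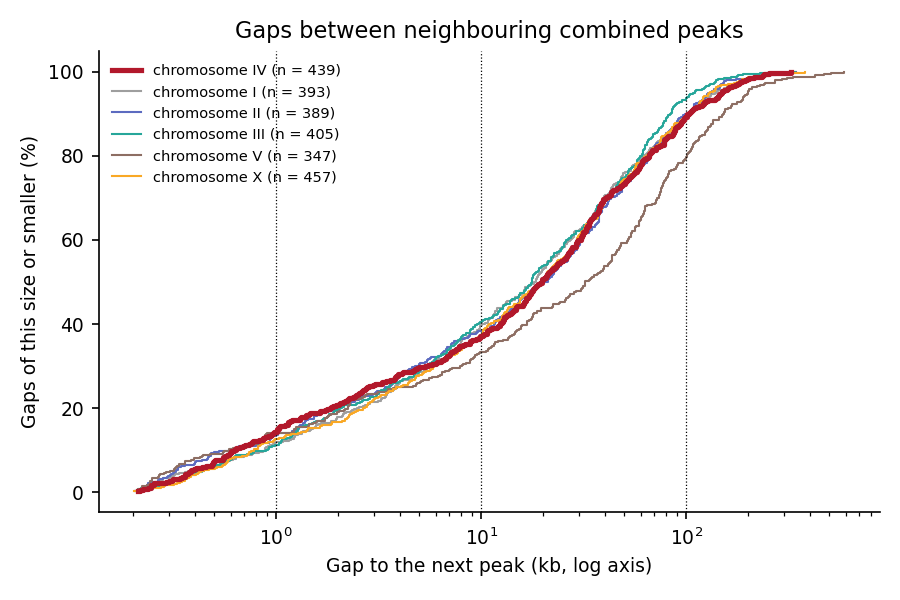
Cumulative share of gaps (%) against the gap to the next combined peak (kb, log axis) for chromosome IV (thick line, 439 gaps) and each of the other 5 chromosomes. At 1 kb the IV curve is the highest of the 6, at 14.4%, and V the next, at 14.1%. The medians are 19752 bp on IV and 32251 bp on V, the longest of the 6.

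Short gaps gathered members into clusters, defined as runs of peaks with no gap over 10 kb. Of the 440 members, 132 (30.0%, interval 25.8 to 34.5) were in 36 clusters of 3 or more, 134 in 67 pairs, and 174 were isolated. The other chromosomes had 27.0% to 37.7% of their peaks in clusters of 3 or more. On IV the share was 18.6% with q of 0.001 or less, a setting that counts fewer peaks. It was 22.7% or 50.7% with gaps of up to 5 or 20 kb. The cause of the lower share at the stricter q was not tested.

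The richest cluster held 7 members in 26774 bp, IV 5588205 to 5614978, around the wide region at 5601238. Of its members 6 were in replicate 2 and 3 in replicate 1, with strengths from 2.52 to 22.7. Another 4 clusters had 5 members each. The most compact of these, IV 11284010 to 11289735, packed 5 peaks with gaps of 457 to 878 bp into 5726 bp. Of its 5 peaks 4 were in replicate 2 and 0 in replicate 1, although its best member had a strength of 13.5.

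IV 10968907 to 10976358 (7452 bp) had gaps of 253 to 1144 bp and was 71.7% covered by its peaks. It had 4 members in replicate 2 and 1 in replicate 1. IV 7039214 to 7053774 (14561 bp) ended in a peak of 5102 bp at q = 3.52e-13. IV 2161759 to 2168839 (7081 bp) was the weakest of the 5, with a best strength of 10.5. In each of these last 2 clusters, 4 members were in replicate 2 and 0 in replicate 1.

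Strong members of chromosome IV rarely lay alone. Of the 40 with q of 1e-10 or less, 5 were isolated (12.5%, interval 4.19 to 26.8), 17 were in pairs and 18 in clusters of 3 or more. Among peaks of the same strength on the other chromosomes 79 of 226 were isolated (35.0%, interval 28.8 to 41.6), with 16.7% on I and 31.1% to 42.9% on II, III, V and X. Over peaks of any strength, 39.5% were isolated on IV and 35.8% (I) to 44.8% (V) on the other chromosomes. The 5 isolated strong ones on IV were 3012423 to 3012766, 5966988 to 5967680, 6336554 to 6337252, 12391150 to 12391504 and 17277284 to 17281678. The first 4 were 344 to 699 bp wide and the last 4395 bp.

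This contrast was seen after the values were known, and its size depends on how a neighbour is counted. The isolated share on IV also changed with the strength limit. It was 26.2% at q of 1e-05 or less and 5.26% at q of 1e-15 or less. These limits were not computed for the other chromosomes. With peaks 500 bp or less apart joined, 26.3% of strong regions were isolated on IV, against 44.5% on the other chromosomes together and 22.2% on I alone. With companions limited to q of 0.001 or less, 35.0% were isolated on IV and 45.6% on the others together, with 36.1% on I and 40% on III. In replicate 2 alone, 4 of 23 on IV (17.4%) and 57 of 147 on the others (38.8%) were isolated, with 23.1% on III and 28.6% on I. The 10 strongest members are among the same 40 strong ones, so their company is no separate support. Of these 10 on IV, 7 had a neighbour within 1 kb, and on the other chromosomes 2 to 5 of 10 did. The members at ranks 1 and 7 of IV counted each other, as did those at ranks 4 and 6. Over all peaks the shares with a neighbour within 1 kb were 24.8% on IV and 20.6% to 25.0% elsewhere.

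The 63 pairs of neighbours under 1 kb apart on IV were separated by a median of 490 bp. The stronger of each pair had a median strength of 6.08 and the weaker one of 2.76, an order that the sorting fixes. Elsewhere the medians were 6.14 and 3.03 over 253 neighbours. One replicate 2 peak joined both members in 3 of the 63 cases on IV (4.76%) and in 5.53% of cases elsewhere, and replicate 1 joined none in either.

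Along the chromosome, peaks were sparse in a stretch on the right side, but not at the right end itself. With the covered span divided into 10 equal segments, numbered from left to right, the counts were 37, 42, 57, 60, 52, 43, 62, 41, 23 and 23. Segments 1 and 2 held 18.0% of the members and segments 9 and 10 held 10.5% (46 peaks, interval 7.76 to 13.7). On the other chromosomes segments 9 and 10 held 14.2% (I) to 23.6% (X), so IV was the lowest of the 6 there, and segments 1 and 2 held 11.2% to 16.5%, so it was the highest. Sparse segments were not limited to IV, where segments 9 and 10 held 5.23% each. Lower shares were held by segment 10 of I (4.06%), segment 3 of II (4.10%) and segments 2 and 9 of V (4.89% and 5.17%). The replicate lists placed 12.3% (replicate 2) and 13.0% (replicate 1) of their chromosome IV peaks in segments 9 and 10. Both values are above that of the combined list and below the 20% of even spacing. In replicate 2 chromosome IV was not the lowest, since I had 11.9%. In replicate 1 it was, with 16% (III) to 25% (X) on the others.

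By fixed windows of 1 Mb, the fewest members lay from 15 to 16 Mb (9) and from 16 to 17 Mb (8), and the most from 11 to 12 Mb (37). The last window, from 17 to 18 Mb, held 12 members although the covered span ends at 17448672. Counts therefore did not keep falling up to the right end. The largest gap, 325763 bp from 14889684 to 15215446, began in the window from 14 to 15 Mb, which had 17 members, and ended in that from 15 to 16 Mb. The next, 252849 bp from 15647138 to 15899986, lay from 15 to 16 Mb, and from 16 to 17 Mb lay 16181359 to 16415023 (233665 bp). No peak of either replicate list lay inside these 3 gaps, and the same was true of 18 of the 20 largest gaps. The combined list kept nearly all replicate peaks and shares their reads, so empty gaps in the replicate lists are no separate support. The remaining gaps of the 5 largest were 9198676 to 9438781 (240106 bp) and 4847972 to 5086303 (238332 bp), and replicate 2 had 1 weak peak in each. The gap of 240106 bp ended at the eighth strongest member. Of the 9 members from 15 to 16 Mb, 0 had a strength of at least 10 and the best ranked 43 on the chromosome. Of the 8 from 16 to 17 Mb, 1 did, the third strongest of the chromosome. The outermost members, IV 127001 to 128133 (q = 0.00619) and IV 17448026 to 17448672 (q = 0.000859), were both weak and were found in replicate 2 alone.

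**Figure D4:**
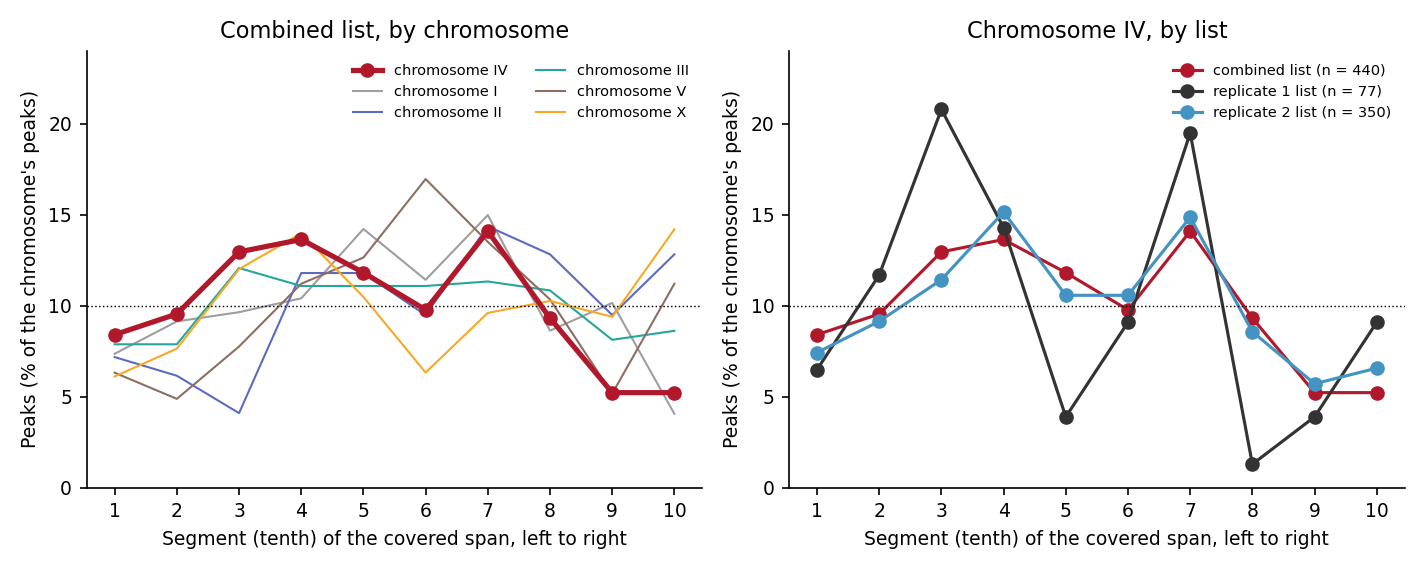
Share of a chromosome's peaks (%) in each of 10 equal segments of its covered span, left to right, for the combined list by chromosome (left) and for the 3 lists of chromosome IV (right), with a dotted line at even spacing. On IV segments 9 and 10 hold 5.23% each, and replicate 1 has maxima of 20.8% in segment 3 and 19.5% in segment 7.

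Of 3 parts of equal length, the central one held 40.2% of the members (interval 35.6 to 45.0), the left part 35.2% and the right part 24.5%. On the other chromosomes the central part held 33.2% (X) to 48.6% (V), the left part 20.8% to 32.0% and the right part 24.9% to 39.0%. Replicate 2 put 41.4% of its IV peaks in the central part and replicate 1 put 29.9% there, with an interval of 20.0 to 41.4 over its 77 peaks. The fullest part of replicate 1 was the left, with 46.8%.

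Replicate 1 was uneven in its own way. It had 16 peaks in segment 3 and 15 in segment 7, but 3 in segment 5 and 1 in segment 8, where the combined list had 52 and 41 members and replicate 2 had 37 and 30 peaks. Strong members were also scarce in segments 5 and 8: 2 of 52 and 1 of 41 had a strength of at least 10. Segment 7 had the most, 9 of 62, and the share over all 440 members was 9.09%. Segments 3, 4 and 7 together held 35 of the 58 members found in both replicate lists. They were picked after seeing these counts and were also the fullest segments of the combined list, with 57, 60 and 62 members.

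Stronger members were held by the replicate lists more often. The combined list shares its reads with those lists, so they are no independent check of it. How much of this relation follows from the shared reads was not tested. Both replicate lists held 58 of the 440 (13.2%, interval 10.2 to 16.7), against 12.9% of combined peaks over all chromosomes. Replicate 1 held 67 (15.2%, against 15.4% over all), replicate 2 held 314 (71.4%, against 68.9% over all) and neither list held 117 (26.6%, against 28.6% over all). These shares are near those of the whole list. The other chromosomes ran from 4.31% (I) to 16.4% (X) for both lists. The share for both was 22.1% among members with q of 0.001 or less, and 6.59% when midpoints had to lie within 200 bp of each other.

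Members in both lists had a median strength of 9.36 and a median width of 1189.5 bp. Those in replicate 2 alone had 3.64 and 474.5 bp, those in replicate 1 alone 4.12 and 756 bp (9 members), and those in neither 2.43 and 362 bp. By rank on the chromosome, replicate 1 held 27 of the first 44 members, 23 of the next 66, 14 of the next 110, 3 of the next 110 and 0 of the last 110. Replicate 2 held every one of the first 110, then 99, 69 and 36 of each further 110. At equal rank in the whole list, the shares on IV and on the other chromosomes had overlapping intervals in all 8 rank classes and in both replicate lists. The intervals also overlapped with chromosome I left out of the others.

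**Figure D5:**
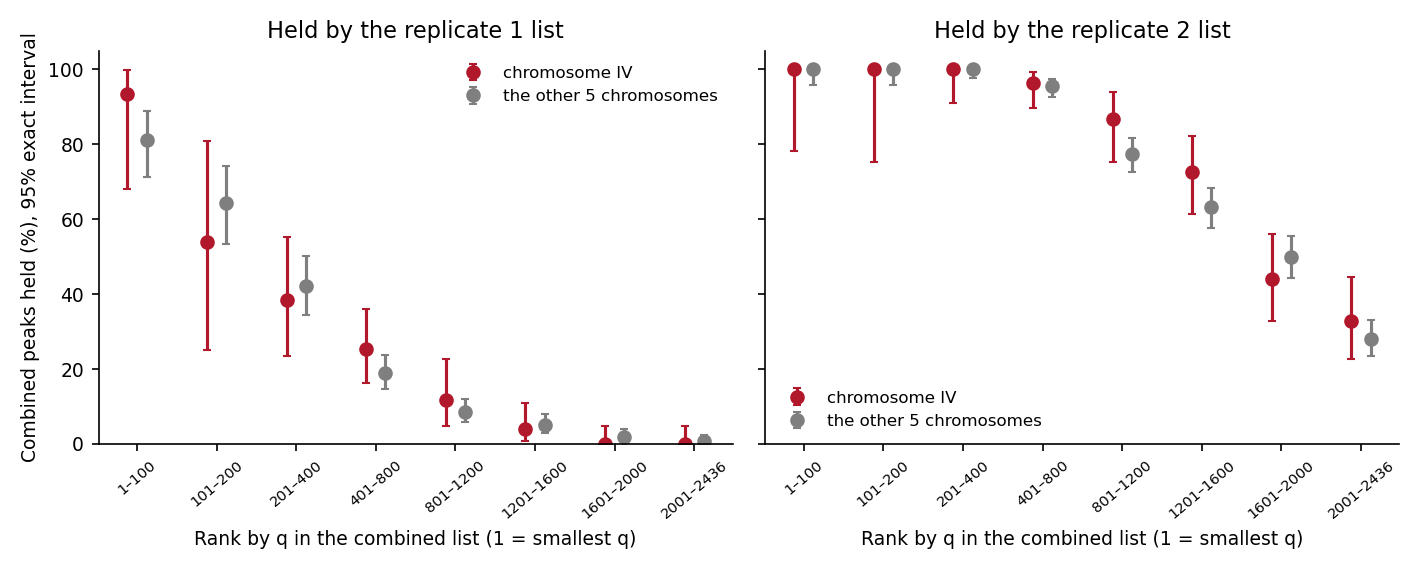
Share of combined peaks (%) held by the replicate 1 list (left) and the replicate 2 list (right), by class of rank in the combined list, for chromosome IV and the other 5 chromosomes, with 95% exact intervals. In the first 100 ranks replicate 1 holds 14 of 15 peaks on IV, and in ranks 1601 to 2436 it holds 0 of 153.

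The strongest members that replicate 1 lacked, those at rank 24 or better on the chromosome, were 2235 to 5443 bp wide. IV 2769590 to 2775032, at rank 13 of the chromosome, had 2 peaks in replicate 2, the better at q = 7.48e-14. IV 291846 to 296610 (4765 bp, combined q = 5.84e-20, rank 16) was a single replicate 2 peak over 99.4% of its width (q = 3.44e-19), which was the seventh strongest on IV in that list. IV 5086304 to 5088538, IV 5652759 to 5657630 and IV 8534923 to 8538498 followed, with combined q-values of 1.54e-15, 1.57e-15 and 1.66e-14. Their replicate 2 q-values ran from 2.19e-11 to 6.1e-10. The next members that replicate 1 lacked, at ranks 25, 27 and 29, spanned only 693, 602 and 355 bp. The one at rank 30 spanned 5102 bp. The first 44 members, in replicate 1 or not, had a median width of 2211.5 bp. A link between width and absence from replicate 1 was not tested.

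Members that replicate 2 lacked were weaker. The first was IV 2705600 to 2708954 at rank 113 (3355 bp, q = 5.01e-06), of which replicate 1 held 20.2% at q = 0.0037. The next, IV 3049812 to 3051072 (rank 137, q = 1.41e-05), was a replicate 1 peak of 792 bp at q = 2.77e-05. The strongest members in neither list were IV 3744882 to 3745776 (rank 145, q = 1.98e-05), IV 255503 to 255864 (rank 187, q = 0.000123) and IV 12033648 to 12035624 (rank 193, q = 0.000186). The first of these lay 396 bp from a weaker member on its left (rank 404), and the last lay 734 bp from a stronger one (rank 110). A region absent from a list was not detected at its depth, which is unknown, and was not shown to be unbound.

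Read from the replicate lists, 67 of the 77 replicate 1 peaks on IV overlapped a replicate 2 peak (87.0%, interval 77.4 to 93.6), against 69.2% (I) to 87.1% (V) on the other chromosomes. In the other direction 60 of 350 replicate 2 peaks overlapped a replicate 1 peak (17.1%, interval 13.3 to 21.5), against 8.37% (I) to 21.1% (X). For the 67 replicate 1 peaks matched in this way, the Spearman rho between the replicates was 0.34 for strength and 0.63 for width. On the other chromosomes, rho for strength ran from 0.25 (X) to 0.65 (I, over 18 peaks) and for width from 0.66 (X) to 0.86 (I). The width value was lowest on IV but close to that of X, and no difference was tested. Some of the 67 peaks shared a match, since they overlapped only 60 replicate 2 peaks. These are descriptions across peaks.

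The combined list kept nearly all replicate regions. It lacked 1 of 77 replicate 1 peaks on IV, 11474024 to 11474400 (q = 0.00553), and 22 of 350 replicate 2 peaks. The strongest of the 22 were 3378938 to 3379137 (200 bp, q = 0.00138), 1648343 to 1649137 (795 bp, q = 0.00198) and 9311146 to 9311481 (336 bp, q = 0.00505), which lies in the gap of 240106 bp. On the other chromosomes the combined list lacked from 0 of 75 (III) to 3 of 26 (I) replicate 1 peaks. Of replicate 2 peaks it lacked 17 of 227 (I), 18 of 300 (II), 21 of 325 (III), 21 of 271 (V) and 24 of 361 (X). Where 1 combined member on IV matched 1 replicate 2 peak, in 300 cases, the midpoints differed by a median of 13.5 bp, against 14 to 15 bp elsewhere. The replicate 2 peak was 0.966 times as wide (median), against 0.974 to 0.990 elsewhere. More than 1 replicate peak fell in 7 members for replicate 1 and in 14 for replicate 2, at most 3 in either.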

How the data were processed

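The members, lists and measures were chosen with earlier results of these data known. The authors deposited 3 peak lists with 1 q-value per peak, a p-value adjusted for multiple testing: 1 list for each biological replicate and 1 for the combined data. Per the file headers, the genome build is WormBase WS190 and the caller is PeakSeq. The sources used here do not give its version, the aligner, the read filters, the input behind each list or how samples were merged. The combined list shares its reads with the replicate lists. Widths, −log10 q, gaps, clusters and overlaps (at least 1 bp) were obtained in Python 3.11.15 using numpy 2.4.6, scipy 1.17.1 and pandas 2.3.3, and plotted with matplotlib 3.10.9. The code was tested on simulated data. A cluster is a run of at least 3 peaks with gaps of at most 10 kb, and the covered span runs from the first to the last peak of the 3 lists. Intervals are 95% exact (Clopper-Pearson) intervals for shares and order-statistic intervals for medians. No p-value was computed, since the deposited lists hold no depth and 1 list stands for each replicate. Regions named are the 10 with the smallest q, the 5 widest, the strongest that each replicate list, both or the combined list lacks, the 5 richest clusters, the 5 largest gaps and the outermost peaks, plus the 5 isolated strong peaks, the peak of 5102 bp and the neighbours of the named regions, all chosen after seeing their values. Alternatives were a q of at most 0.001, no peaks under 50 bp, joining peaks 500 bp or less apart, other limits for gaps and overlaps, and either replicate list alone.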

Additional observations from a re-analysis of the deposited data

How the results depend on the processing

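Of 56 recomputed values for 10 results, 38 lay inside the main value's interval. The 13 alternatives for segments 9 and 10 and for isolated strong peaks were chosen after seeing the data. With q of 0.001 or less the median width was 563 bp, the median strength 4.89, the median gap 35114.5 bp, the share in clusters 18.6%, the share in both replicate lists 22.1% and the share of isolated strong peaks 35.0%. The share in clusters was 22.4% with peaks 500 bp or less apart joined, 22.7% with gaps up to 5 kb and 50.7% with gaps up to 20 kb. The share in both lists was 6.59% with midpoints within 200 bp. With either replicate list alone in place of the combined list, the share of peaks on IV ran from 18.4% to 19.1%, the median width from 454 to 602 bp, the median strength from 2.98 to 3.28, the median gap from 27432 to 119252 bp, the share in clusters from 24.7% to 26.3%, the share in the central part from 29.9% to 41.4%, the rho of width and strength from 0.34 to 0.38 and the share in segments 9 and 10 from 12.3% to 13.0%. Fewer peaks are counted under the stricter q and in either replicate list, and a shorter list has longer gaps by construction. Causes of the other shifts were not tested. Isolated strong peaks were not recomputed from replicate 1, which has 2 peaks of that strength on IV. No paired analysis was possible because the design has a single condition. Depth is unknown, which limits what a list's length can show.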
